A study of Mus musculus with 5 samples.

Results

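The genes described here are 10 markers of resident tissue macrophages, namely Adgre1, Cd68, Csf1r, Mrc1, Cd163, Lyz2, C1qa, C1qb, C1qc and Cx3cr1. They were chosen by name, and every probe of these genes on the array was taken, which gave 15 probes of 56605. Of these, 13 were well above background on enough arrays to be tested, and the brightest of each gene made 10 of the 32917 features compared. RNA from whole colon was measured on 5 single-colour arrays, each holding 1 sample. Per the labels, 2 Control samples and 3 NT-3N samples came from wild-type mice of the strain given as C57BL/B6, and the study's text gives an age of 8 weeks for the injected mice. NT-3N is an agonist of the interleukin-11 (IL-11) receptor, described in the methods as a modified human IL-11, and the colon was taken 3 h after it was given intravenously. No vehicle injection is given for the Control mice, so the injection and the agonist cannot be told apart. The comparison asks what the colon transcribes soon after its IL-11 receptors are engaged, here for the genes of a cell that is neither epithelium nor fibroblast.

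Resident macrophages of the colon lie beneath the epithelium and in the muscle layer, where they take up dead cells and bacteria and are replenished largely from blood monocytes. Csf1r is the receptor for the growth factors that keep them alive, and Cx3cr1 is a chemokine receptor by which gut macrophages are recognised. Mrc1 and Cd163 are scavenging receptors, Cd68 is a glycoprotein of the lysosome, Adgre1 encodes the surface antigen F4/80, Lyz2 is lysozyme, and C1qa, C1qb and C1qc encode the chains of C1q, the first component of complement.

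None of the 10 markers differed between NT-3N and Control after adjustment over all features (limma, Benjamini-Hochberg; adjusted p between 0.323 and 0.995), where 47 of 32917 features, or 0.143%, were called. The 95% interval of every marker lay within a 2-fold change in either direction, which held for 79.6% of all features. The median of the 10 log2 differences was 0.0076, with 5 markers higher and 5 lower, against -0.019 for all features. With the arrays scaled to the median in place of quantiles 8 of the 10 were higher, and with the 75th percentile 6 were. Mrc1 was the marker with the largest difference, 0.53 on the log2 scale, and the only one whose NT-3N samples all lay above the Control samples. All 10 markers were well above background on all 5 arrays, so their RNA was measurable in every sample. Which cells of the colon it came from was not tested. In whole tissue, the number of macrophages and the RNA per macrophage cannot be told apart. The numbers below are log2 normalized signal unless a difference is named, and levels of different genes are not set against each other because probes differ in brightness.

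Among the scavenging receptors, the signal of Mrc1, the mannose receptor, was 9.10 and 8.84 in Control and 9.41, 9.67 and 9.43 in NT-3N. All 3 NT-3N samples lay above both Control samples, by 0.53 on average, a fold of 1.45. Its standard error was 0.14 and its 95% interval 0.20 to 0.87. The unadjusted limma p was 0.00763 and the adjusted p 0.323, and the unadjusted call was lost without Control replicate 2, with a difference of 0.40 and an unadjusted p of 0.0617, and with the local-pooled-error test at an unadjusted p of 0.143. By the unadjusted threshold of 0.05, Mrc1 was 1 of 10 markers called higher and 0 were called lower, where 4.95% of all features were called higher and 4.67% lower. A lack of overlap in the higher direction was seen in 13.5% of all features and in the lower direction in 14.8%, so 1 of 10 markers and 0 of 10 were near the background. Cd163, which takes up haemoglobin bound to haptoglobin, was measured at 8.39 and 8.45 in Control and at 8.37, 8.52 and 8.49 in NT-3N. These values overlapped within a narrow range, with a difference of 0.033 and an interval of -0.24 to 0.31.

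**Figure D1:**
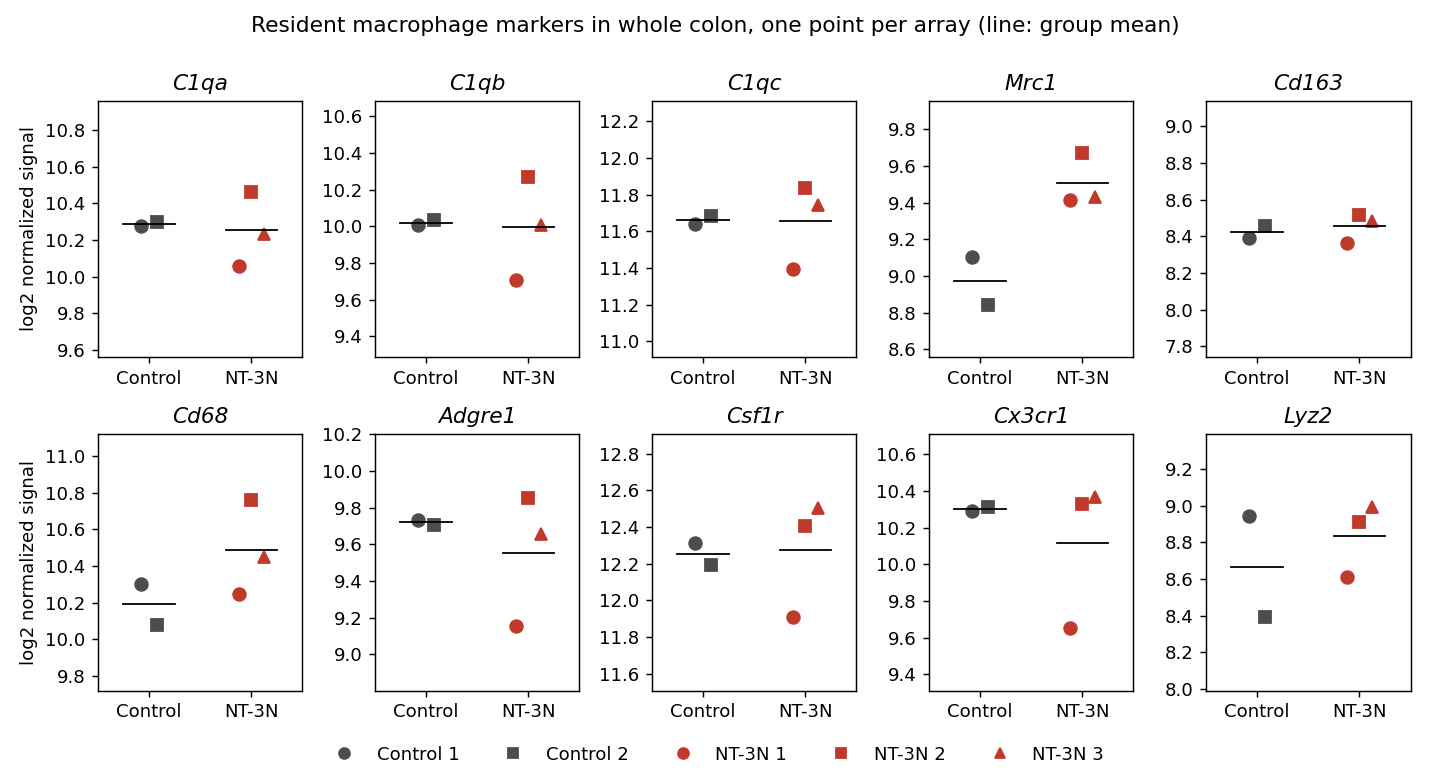
Log2 normalized signal of each marker, 1 point per array and 1 panel per gene, with a line at the mean of the 2 Control and of the 3 NT-3N samples. Every panel spans 1.4 log2 units, so the spread can be compared between genes; Mrc1 is the panel in which the groups do not overlap.

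The lysosomal glycoprotein Cd68 had a signal of 10.30 and 10.08 in Control and of 10.24, 10.76 and 10.45 in NT-3N. The groups overlapped, since NT-3N replicate 1 lay below Control replicate 1. The difference was 0.29, with an interval of -0.11 to 0.70 (limma, adjusted p = 0.636). Lyz2, the lysozyme of myeloid cells, was measured at 8.94 and 8.39 in Control and at 8.61, 8.91 and 8.99 in NT-3N. Here the Control samples themselves lay 0.55 apart, and the difference of 0.17 had an interval of -0.32 to 0.66. Lyz1, a near-identical copy that Paneth cells express, had 11.98 and 11.22 in Control and 11.68, 11.76 and 11.90 in NT-3N, also with Control replicate 2 lowest. Whether the probe of either gene also detects the other was not tested.

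The surface antigen gene Adgre1 was measured at 9.74 and 9.71 in Control and at 9.15, 9.85 and 9.66 in NT-3N. NT-3N replicate 1 lay well below the other samples, and the difference was -0.17 with an interval of -0.67 to 0.33 (limma, adjusted p = 0.824). Cx3cr1 had 10.29 and 10.31 in Control and 9.65, 10.33 and 10.37 in NT-3N. Again 1 low sample, NT-3N replicate 1, set the sign of the difference of -0.19, whose interval of -0.72 to 0.35 was the widest among the markers. Csf1r was measured at 12.31 and 12.20 in Control and at 11.91, 12.40 and 12.50 in NT-3N. Its values in NT-3N lay on both sides of the Control values, and the difference was 0.019 with an interval of -0.42 to 0.46.

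The C1q chains had the smallest differences after NT-3N, together with Csf1r and Cd163. C1qa was measured at 10.27 and 10.30 in Control and at 10.06, 10.46 and 10.23 in NT-3N, a difference of -0.034 with an interval of -0.36 to 0.30. C1qb was measured at 10.01 and 10.03 in Control and at 9.71, 10.27 and 10.01 in NT-3N, a difference of -0.026 with an interval of -0.44 to 0.38. C1qc was measured at 11.64 and 11.68 in Control and at 11.39, 11.83 and 11.74 in NT-3N, a difference of -0.0038 with an interval of -0.35 to 0.34. In all 3 genes the Control samples were close together, NT-3N replicate 1 was lowest and NT-3N replicate 2 highest. The signs of these 3 differences turned with median scaling, where all 3 were slightly above 0.

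**Figure D2:**
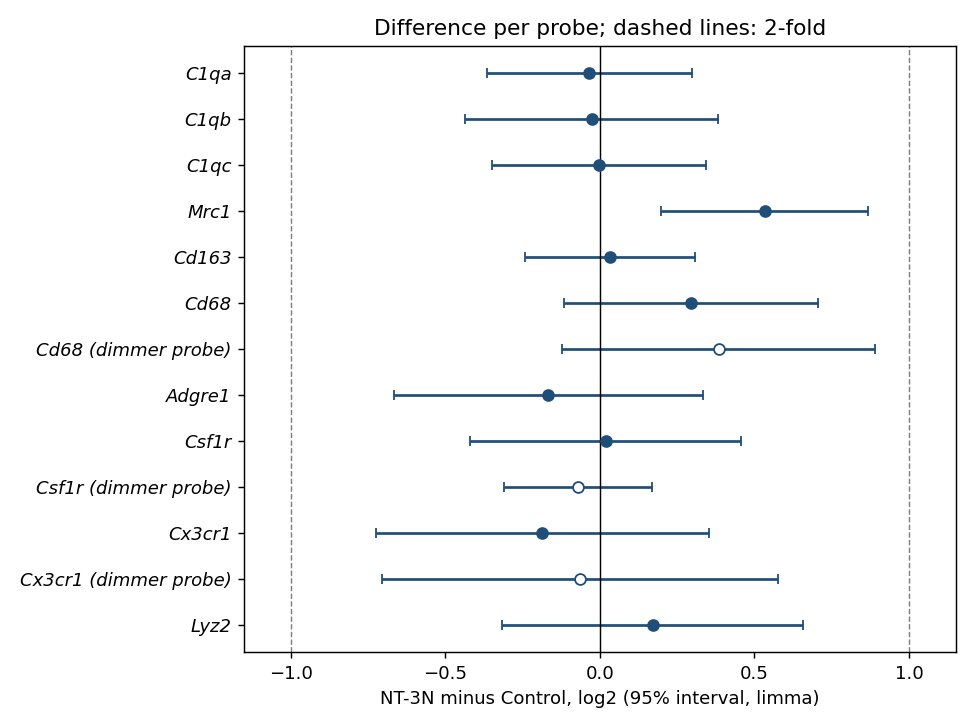
Difference between NT-3N and Control for the 13 tested probes of the markers, in log2, with the 95% interval from limma. Filled points are the brightest probe of a gene, from the fit with the brightest probe per gene. Open points are a dimmer probe, from a fit of every probe. Dashed lines mark a 2-fold change, which every interval stays inside.

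For 5 markers the array carried a further probe. Those of Adgre1 and Cd163 were well above background on 0 of 5 arrays and were not tested. The dimmer Cd68 probe gave a difference of 0.38 (limma, unadjusted p = 0.113 in a fit of every probe), with NT-3N replicate 2 highest as on the brighter one. The dimmer Cx3cr1 probe had 6.82 and 7.09 in Control and 6.47, 7.34 and 6.85 in NT-3N, again lowest in NT-3N replicate 1. The dimmer Csf1r probe departed from its brighter probe. It had 9.93 and 9.76 in Control and 9.77, 9.80 and 9.76 in NT-3N, so the low value of NT-3N replicate 1 on the brighter probe was not seen on it, and its difference of -0.071 had the opposite sign.

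The spread among NT-3N samples was larger than the difference between groups for 9 of the 10 markers, Mrc1 being the exception. By array, 7 of 10 markers were lowest on NT-3N replicate 1, against 25.6% of all features, and 7 of 10 were highest on NT-3N replicate 2, against 15.7%. Those lowest on NT-3N replicate 1 were Adgre1, Csf1r, Cd163, Cx3cr1 and the C1q genes, while Cd68, Mrc1 and Lyz2 were lowest on Control replicate 2. The median difference of NT-3N replicate 2 from replicate 1 was 0.47 over the markers and -3.3e-05 over all features. The median range among NT-3N samples was 0.48 for the markers and 0.33 for all features, and the median difference between the Control samples was 0.053 and 0.16.

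Of the markers of other cells, the fibroblast mean had its lowest and highest values on the same arrays as the C1q genes, and the smooth muscle mean shared the lowest array. The mean over 8 fibroblast markers was 12.32 and 12.23 in Control and 12.01, 12.60 and 12.33 in NT-3N. The mean over 8 smooth muscle markers was 14.29 and 14.32 in Control and 13.69, 14.09 and 14.01 in NT-3N. All 8 had a lower mean in NT-3N, as 17654 of 32917 features did, and 7 were lower without overlap, as 14.8% of all features were. An unadjusted limma p under 0.05 was found for Lmod1, Tagln and Myh11, with differences of -0.84, -0.25 and -0.22. By that threshold 3 of 8 were called lower, against 4.67% of all features, and none passed the adjusted threshold. The mean over 12 epithelial markers was lowest on NT-3N replicate 3 and stayed between 15.88 and 15.99. The part of fibroblast and muscle content in the marker values was not tested.

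**Figure D3:**
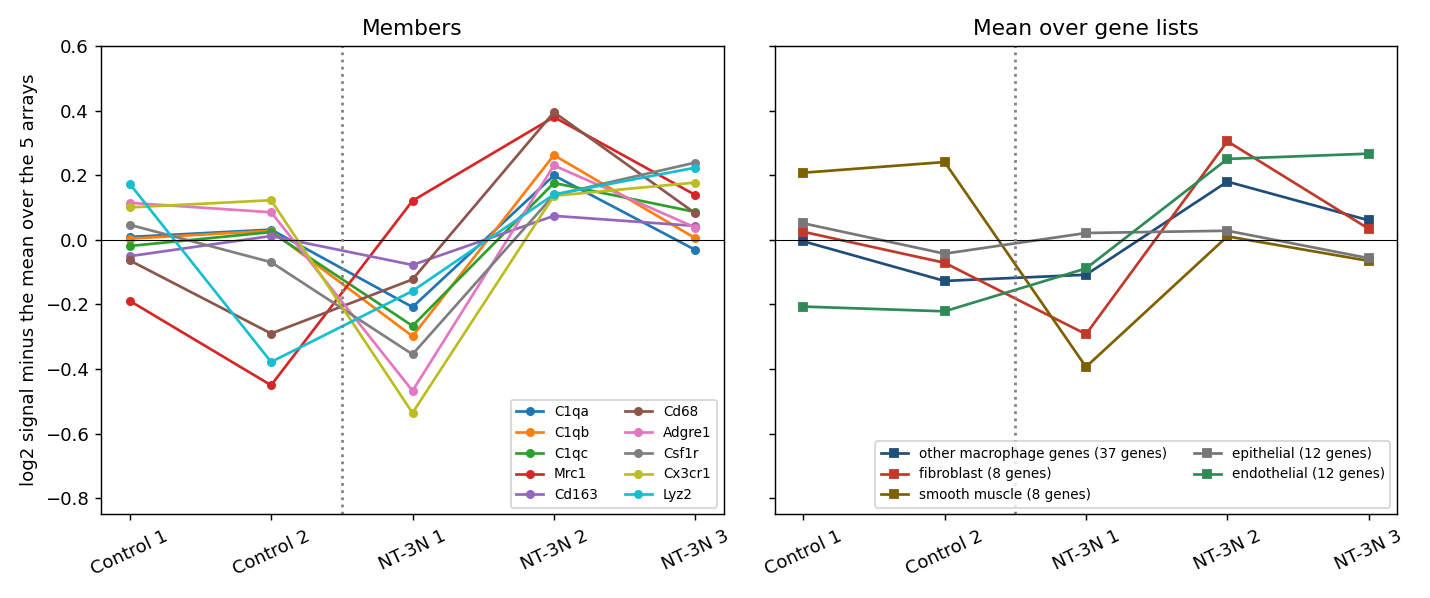
Log2 signal on each array minus the mean over the 5 arrays, for the 10 markers (left) and for the mean over lists of marker genes of other macrophage genes, fibroblasts, smooth muscle, epithelium and endothelium (right). Of the marker curves, 7 have their lowest point on NT-3N replicate 1, where the fibroblast and smooth muscle means are lowest too.

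Pancreatic enzyme transcripts, which colon should lack, also differed between arrays. Amy2a5, an amylase, was at 14.31 and 4.40 in Control and at 11.21, 2.42 and 2.74 in NT-3N, and Cpa1, a carboxypeptidase, at 11.67 and 4.89 in Control and at 8.14, 5.29 and 4.77 in NT-3N. Control replicate 1 and NT-3N replicate 1 thus stood apart, 1 in each group. These genes were picked after their values were seen. On the other 3 arrays, 10 of 10 markers had a higher value in NT-3N, as 48% of all features did, with a median difference of 0.11. There 0 markers passed the adjusted threshold, which 451 of 31849 features did. Mrc1, Lyz2 and Cd68 had an unadjusted limma p under 0.05 there, with differences of 0.72, 0.56 and 0.53, where 8.22% of all features were called higher by that threshold, from 1 Control sample whose spread was taken as that of the NT-3N samples. Leaving out NT-3N replicate 1 alone also gave 10 of 10 markers a higher value, against 46.5% of all features, with a median of 0.12. Mrc1 and Cd68 then had an unadjusted limma p under 0.05, 2 of 10 markers, where 7.64% of all features were called higher.

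The 3 C1q chains assemble into 1 protein, and their genes are neighbours in the RefSeq annotation. Their profiles over the 5 arrays, each centred on its own mean, differed by a root mean square of 0.052 (C1qa and C1qb), 0.061 (C1qa and C1qc) and 0.056 (C1qb and C1qc). Among 17941 other named genes, C1qa was the 11th and C1qc the 14th nearest to C1qb, but C1qb was only the 94th nearest to C1qc. C1qb and C1qc were the 37th and 87th nearest to C1qa. The nearest to C1qb were Col6a1, a collagen of connective tissue, at 0.011, then Car4 at 0.021, a carbonic anhydrase of the colon epithelium, and Insyn2a at 0.032. The nearest to Adgre1 were Stab1, a scavenger receptor of macrophages and sinusoidal endothelium, at 0.027, then Gpx7 at 0.035 and Tgif2 at 0.038. The nearest to Cx3cr1 were Tram1l1, Bmper and Tuba1a, all at 0.026 or 0.027. With 5 arrays such likeness is a description and carries no test.

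The promoters of C1qb and C1qc are shown because these genes are neighbours that encode chains of 1 protein, and that of Mrc1 because it is the marker with the largest difference. PU.1, a transcription factor of the myeloid lineage, binds a purine-rich core, searched as GAGGAA on both strands. Capitals mark each match in the 250 bases before the transcript start (RefSeq, GRCm38.p6, written 5′ to 3′ on the gene's strand), so TTCCTC in capitals is a match on the other strand.
C1qb (chr4:136886201-136886450, minus strand): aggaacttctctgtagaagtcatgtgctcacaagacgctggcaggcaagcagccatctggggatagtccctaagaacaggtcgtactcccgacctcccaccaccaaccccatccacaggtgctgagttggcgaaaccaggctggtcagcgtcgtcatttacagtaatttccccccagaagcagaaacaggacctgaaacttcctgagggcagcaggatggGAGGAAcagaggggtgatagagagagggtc
C1qc (chr4:136892915-136893164, minus strand): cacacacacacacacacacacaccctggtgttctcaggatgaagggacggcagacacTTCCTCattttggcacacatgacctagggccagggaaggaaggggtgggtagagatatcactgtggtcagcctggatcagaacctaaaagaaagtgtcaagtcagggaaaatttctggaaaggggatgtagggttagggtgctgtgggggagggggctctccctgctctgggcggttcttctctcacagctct
Mrc1 (chr2:14229164-14229413, plus strand): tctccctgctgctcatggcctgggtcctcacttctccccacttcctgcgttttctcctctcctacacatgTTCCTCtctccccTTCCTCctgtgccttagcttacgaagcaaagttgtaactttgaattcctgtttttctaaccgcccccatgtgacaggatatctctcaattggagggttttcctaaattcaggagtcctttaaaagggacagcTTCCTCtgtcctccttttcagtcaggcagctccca
Of 7 markers with such a window, C1qb, C1qc, Cd68 and Mrc1 held the letters, 4 of 7, where 23.25% of 32851 windows in the table did. The letters TTCNNNGAA, which STAT factors downstream of IL-11 receptor signalling bind, were in 0 of 7, where 7.02% of all windows held them. A match is a run of letters and no measured binding, and the windows of Adgre1, Csf1r and C1qa were not analysed here.

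Other genes of tissue macrophages were taken from a list of 39, of which 37 were tested and Ms4a4a and Vsig4 were not. None passed the adjusted threshold, 4 had an unadjusted limma p under 0.05 with a higher value in NT-3N and 1 with a lower one, where 4.95% and 4.67% of all features did. The median difference was 0.11, and it was 0.22 without Control replicate 1, 0.040 without Control replicate 2, 0.19 without NT-3N replicate 1 and 0.026 without NT-3N replicate 2. The 4 were Clec10a, a C-type lectin, with a difference of 0.70; Lgmn, a lysosomal protease, with 0.40; Msr1, a scavenger receptor, with 0.65; and Cd14, a receptor for bacterial lipopolysaccharide, with 0.33. The lower one was Cd209f, a lectin, with -0.66. The list's mean signal was 9.92 and 9.80 in Control and 9.82, 10.11 and 9.99 in NT-3N, so the groups overlapped.

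Of 17 growth and transcription factors and receptors of macrophages, 16 were tested and none was called. Csf1 and Il34, the ligands of Csf1r, had differences of 0.13 and 0.25, and the ligand of Cx3cr1, Cx3cl1, had 0.019. Csf2rb, the receptor chain for GM-CSF and IL-3, had a difference of 1.01 (limma, unadjusted p = 0.00165, adjusted p = 0.186). Runx1, a factor of blood cell development, had 0.62, and Tgfbr2, a receptor of TGF-beta, had 0.40. These 3 of 16 had an unadjusted limma p under 0.05 with a higher value in NT-3N, where 4.95% of all features did. Spi1, which encodes PU.1, was well above background on 1 of 2 Control and 2 of 3 NT-3N arrays, so its difference is not given.

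Partners and relatives of the markers numbered 22, of which 21 were tested. None was called, and 6 had an unadjusted limma p under 0.05 with a higher value in NT-3N, where 4.95% of all features did. From the complement pathway that C1q starts, the list held 8 genes, and 4 of them were among these 6, namely C1ra, a protease bound to C1q, with a difference of 0.57, C4b with 0.56, C3 with 0.83, and Serping1, the inhibitor of that protease, with 0.43. The other 4 overlapped between groups, with differences of 0.38 for C1rb, 0.33 for C1s2, 0.25 for C1s1 and -0.34 for C2, the protease that is cleaved with C4. Hmox1, which degrades the haem that Cd163 delivers, had a difference of 0.57, and Lamp2, a lysosomal membrane protein, had 0.35. Their adjusted limma p lay between 0.245 and 0.474. Hp, which encodes haptoglobin, was at 8.21 and 6.23 in Control and at 10.64, 9.31 and 6.77 in NT-3N and overlapped. Adgre5, a relative of Adgre1, was listed at 1.31 on Control replicate 1 and between 12.08 and 12.69 on the other 4 arrays, so its difference rests on 1 array.

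**Figure D4:**
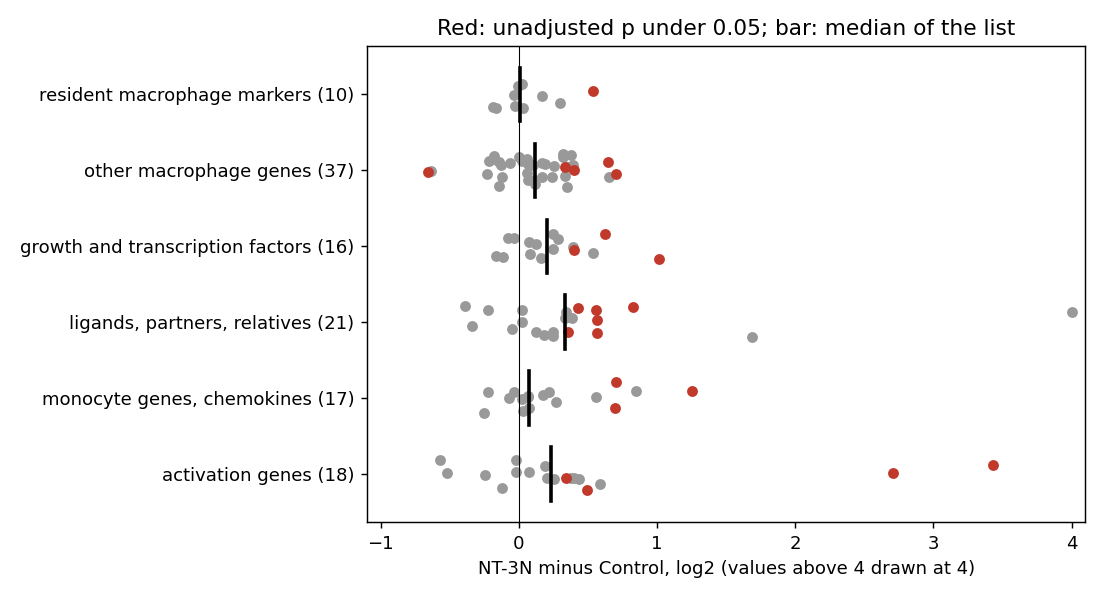
Difference between NT-3N and Control in log2 for each tested gene of 6 lists, with red for an unadjusted limma p under 0.05 and a bar at the median of each list. The point drawn at the right edge is Adgre5, and the 2 far points among activation genes are Socs3 and Il6. Il6 is drawn in red like the others, but it was not well above background in Control. Its colour is therefore not read as a call.

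Blood monocyte genes and the chemokines that attract monocytes were tested in 17 of 17 cases, with a median difference of 0.075, which was 0.31 without Control replicate 2, 0.17 without Control replicate 1, 0.19 without NT-3N replicate 1 and 0.049 without NT-3N replicate 2. The 3 with an unadjusted limma p under 0.05 were chemokines, Ccl7 with a difference of 1.25, Ccl8 with 0.70 and Ccl2 with 0.70. All 3 were higher in NT-3N, where 4.95% of all features were by that threshold, and none passed the adjusted one. Ccl12, another chemokine of the list, overlapped between groups with a difference of 0.22. Each of these chemokines was lowest on Control replicate 1, and Ccl2 was at 6.75 and 7.73 in Control and at 8.02, 7.96 and 7.84 in NT-3N. Among 18 tested activation genes, Socs3, which limits STAT signalling, rose by 2.71 (limma, adjusted p = 0.00875), from 10.63 and 10.11 in Control to 12.88, 13.21 and 13.14 in NT-3N. Il1b with a difference of 0.49 and Retnla with 0.34 had an unadjusted limma p under 0.05, where 4.95% of all features were called higher. Of the 18 activation genes, 12 had a higher value in NT-3N and 6 a lower one, with 0 called lower by that threshold. Among the lower ones, Arg1 had -0.57 and overlapped, and Ptgs2 had -0.52 and was lower without overlap. Il6 was well above background on 0 of 2 Control and 2 of 3 NT-3N arrays and at least 2.72-fold higher in NT-3N, and no p is given because it entered the comparison only through NT-3N.

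Of the other leukocytes that colon could hold, 9 of 13 neutrophil markers were tested, since Ly6g, Cxcr2, Retnlg and Ngp were not well above background on enough arrays. S100a9 and S100a8 were not well above background on either Control array and were at least 13.9-fold and at least 3.61-fold higher in NT-3N, Mmp9, well above background on 0 of 2 Control and 2 of 3 NT-3N arrays, at least 1.86-fold, and Mpo had a difference of -0.57. S100a9, S100a8 and Mmp9 entered the comparison only through their NT-3N arrays, so no p is given for them. The neutrophil markers well above background on all 5 arrays were only Mpo, Csf3r, Camp and Elane, with a median difference of -0.17. Csf3r had -0.16, Camp 0.19 and Elane -0.18. Mpo had an adjusted limma p of 0.502. The dendritic cell factor gene Batf3 had a difference of 0.99 (limma, adjusted p = 0.0783) and the B cell gene Ms4a1 had 3.65 (adjusted p = 0.0595). Each was the only gene of its list with an unadjusted limma p under 0.05, of 10 dendritic cell markers and of 9 T and B cell markers tested. Pdpn, on the lymphatic endothelial list, had 1.49 (limma, adjusted p = 0.0672). Its product podoplanin is counted among mesenchymal stromal markers in the study's text, and the lymphatic genes Prox1 and Lyve1 had 0.26 and 0.32. Reln on the lymphatic endothelial list had 0.38 and the fibroblast gene Dcn 0.32, both with an unadjusted limma p under 0.05. By that threshold 2 of 12 endothelial and 1 of 8 fibroblast markers were called higher, against 4.95% of all features, and 0 lower. Of the fibroblast markers 4 had a lower value, and their median difference was 0.0035. Of the endothelial markers 2 had a lower value, and their median difference was 0.26.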

How the data were processed

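The authors extracted spot values with Agilent software, Feature Extraction 11.0.1.1. In the deposited files each spot has a background-subtracted and detrended Cy3 intensity that was not scaled between arrays, and the authors also deposited quantile-normalized log2 values of 37380 probes, used here as an alternative. There was 1 slide and 1 scan time for all 5 arrays. Between 69 and 184 outlier spots of 59305 were left out per array, no spot was saturated, and between 70.6% and 73.0% of probes were well above background. The processed signal was log2-transformed, averaged per probe and quantile-normalized. Probes well above background on at least 2 arrays, with a value on both Control and at least 2 NT-3N arrays, were kept. Accessions were matched to RefSeq symbols (32994 of 56605 probes named), and the brightest probe stood for a gene. The array header names another build than RefSeq's table, so only promoter coordinates are given.

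NT-3N was compared with Control in limma 3.58.1 (R 4.3.3, lmFit, eBayes with an intensity trend, two-sided, Benjamini-Hochberg adjustment over 32917 features). The methods' local-pooled-error test was an alternative. Likeness of profiles is the root mean square distance over 5 arrays after centring. Beside the 10 markers, genes of each list with an unadjusted p under 0.05 are named, at most 6 per list, and the 3 nearest genes for 3 markers; other names were chosen after their values were seen. The markers and lists were chosen with earlier results of these data known. The limma test was checked on data simulated with independent normal noise at its own fitted variances. No shift of a whole array was simulated, so the check does not cover one. An exact permutation test of 2 against 3 samples cannot go below p = 0.1, and the number of arrays limits the precision. The series' design text counts its replicates in mice, so each array was taken as 1 mouse. Same-numbered samples of the groups deviated with correlations of 0.13 and 0.036.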

Additional observations from a re-analysis of the deposited data

How the results depend on the processing

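Across 18 alternatives 0 of the 10 markers passed the adjusted threshold, and the median difference of the markers lay between -0.070 and 0.12. The intervals of all 10 stayed within 2-fold except for 1 marker each with the replicate block, with the local-pooled-error test, without Control replicate 1 and on the 3 arrays with low pancreatic enzyme signal, a setting chosen after seeing the data. Mrc1 kept its direction, with differences from 0.40 to 0.72, but lost its unadjusted call without Control replicate 2 (limma, unadjusted p = 0.0617) and with the local-pooled-error test (unadjusted p = 0.143).

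The number of all features called was 2 with no filter on dim probes, 2 with no intensity trend, 170 with array weights, 0 with the replicate block (2488 at an unadjusted limma p under 0.05), 385 with the local-pooled-error test, 451 on the 3 arrays, and between 0 and 116 when 1 array was left out (0 without NT-3N replicate 3, 1 without NT-3N replicate 2 and 116 without Control replicate 2). Samples of the same number were not matched by any label, and the block changed no call among the markers.

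Signs of small differences turned. With median scaling C1qa was 0.0045, C1qb 0.0081 and C1qc 0.036, and C1qc was 0.014 with 75th percentile scaling and 0.031 with normexp. With array weights the values were 0.049, 0.088 and 0.088 for C1qa, C1qb and C1qc. Csf1r was -0.097 with the replicate block and -0.026 with the mean of probes. With the local-pooled-error test C1qc was 0.084 and Cx3cr1 0.025. On the 3 arrays Adgre1 was 0.046, C1qa 0.053, C1qb 0.11, C1qc 0.11 and Cx3cr1 0.035. Leaving out 1 array at a time, the difference ranged from -0.31 to 0.034 for Adgre1, -0.096 to 0.20 for Csf1r, -0.10 to 0.44 for Lyz2, -0.14 to 0.064 for C1qa, -0.16 to 0.12 for C1qb, -0.093 to 0.13 for C1qc and -0.31 to 0.045 for Cx3cr1; the upper end was without NT-3N replicate 1 except for Lyz2, where it was without Control replicate 1. The cause of these shifts was not tested. Where 1 Control array was left, its spread was taken from the NT-3N arrays. A block on slide or scan was not run, since there was 1 of each.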
